A study of Mus musculus with 8 samples.

Results

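Autophagy machinery is taken here as 36 genes, chosen by name as the core set that starts, builds and loads the autophagosome, and read in *Zeb1-/-* LSK cells that carried or lacked EpCAM. All 36 were among the 54532 genes of the deposited count table, and all 36 had enough reads to be tested, as had 13560 genes in total. In *Zeb1-/- EpCAM+* HSPCs, 7 of the 36 were higher (*Ulk1*, *Ulk2*, *Atg14*, *Atg16l2*, *Map1lc3b*, *Gabarapl2* and *Nbr1*) and 4 were lower (*Becn1*, *Wipi1*, *Atg4b* and *Optn*) than in *Zeb1-/- EpCAM-* HSPCs, that is 19.4% and 11.1%, where 21.8% and 20.8% of all tested genes were higher and lower.

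The mice were C57BL/6, 8 to 12 weeks old, and carried floxed *Zeb1* with *Mx1-Cre*, which pIpC switches on. Bone marrow was taken 14 days after the last pIpC dose, and LSK cells (lineage-negative, c-Kit+, Sca-1+) were split by surface EpCAM. Each fraction had 4 libraries, from 4 mice per genotype. Both fractions came from mice treated to delete *Zeb1*, and no library of control mice is included, so that the comparison is between fractions, not between genotypes. *Mx1-Cre* answers interferon in many cell types, so that *Zeb1* may also have been lost outside HSPCs.

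Autophagy encloses cytoplasm in a double membrane and delivers it to the lysosome. Kinase complexes start the membrane, lipid carriers enlarge it, and conjugation enzymes attach ATG8 family proteins, which bind receptors that carry cargo. Messenger RNA does not measure this flow, because much of the control acts on the proteins.

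Library totals ran from 15225714 to 17073546 counts in the EpCAM+ libraries and from 14114491 to 15929923 in the EpCAM- libraries. *Epcam* stood at 234, 161, 171 and 183 CPM (read counts scaled to library size) in EpCAM+ libraries 1 to 4, and at 8.99, 3.77, 1.43 and 1.25 CPM in EpCAM- libraries 1 to 4. *Zeb1* reads remained in every library, at 23.7, 14.8, 20.8 and 18.8 CPM with EpCAM and 13.4, 14.0, 10.7 and 9.49 CPM without, a log2FC of 0.72 (SE 0.17, edgeR adjusted p = 0.00798). Counts per gene do not separate reads of a deleted allele from reads of an intact allele. The LSK surface genes were present in all 8 libraries, *Kit* at 244 to 328 CPM with EpCAM and 155 to 245 CPM without, *Ly6a* (Sca-1) at 116 to 351 and 15.7 to 71.7 CPM.

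Of the 36 autophagy genes, 7 (19.4%) were higher and 4 (11.1%) lower in the EpCAM+ fraction in edgeR (quasi-likelihood test, p adjusted by Benjamini-Hochberg), beside 2961 (21.8%) higher and 2818 (20.8%) lower of all 13560 tested genes. With upper-quartile scaling the split of all genes was 3642 higher to 2083 lower, and with unscaled library totals 3476 to 2066, while the autophagy genes stood at 11 higher and 3 lower, and at 9 and 3. In 9 autophagy genes (25.0%) all 4 EpCAM+ values lay above all 4 EpCAM- values, against 20.1% of tested genes, and in 4 (11.1%) they lay below, against 20%. The median log2 fold change (log2FC) of the 36 was 0.07, and that of all tested genes 0.02. Without EpCAM+ replicate 1 the median of the 36 was 0.03, and without EpCAM+ replicate 2 it was 0.11. Changes thus ran in both directions, and in bulk RNA fewer cells that express a gene cannot be told apart from less RNA per cell.

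**Figure D1:**
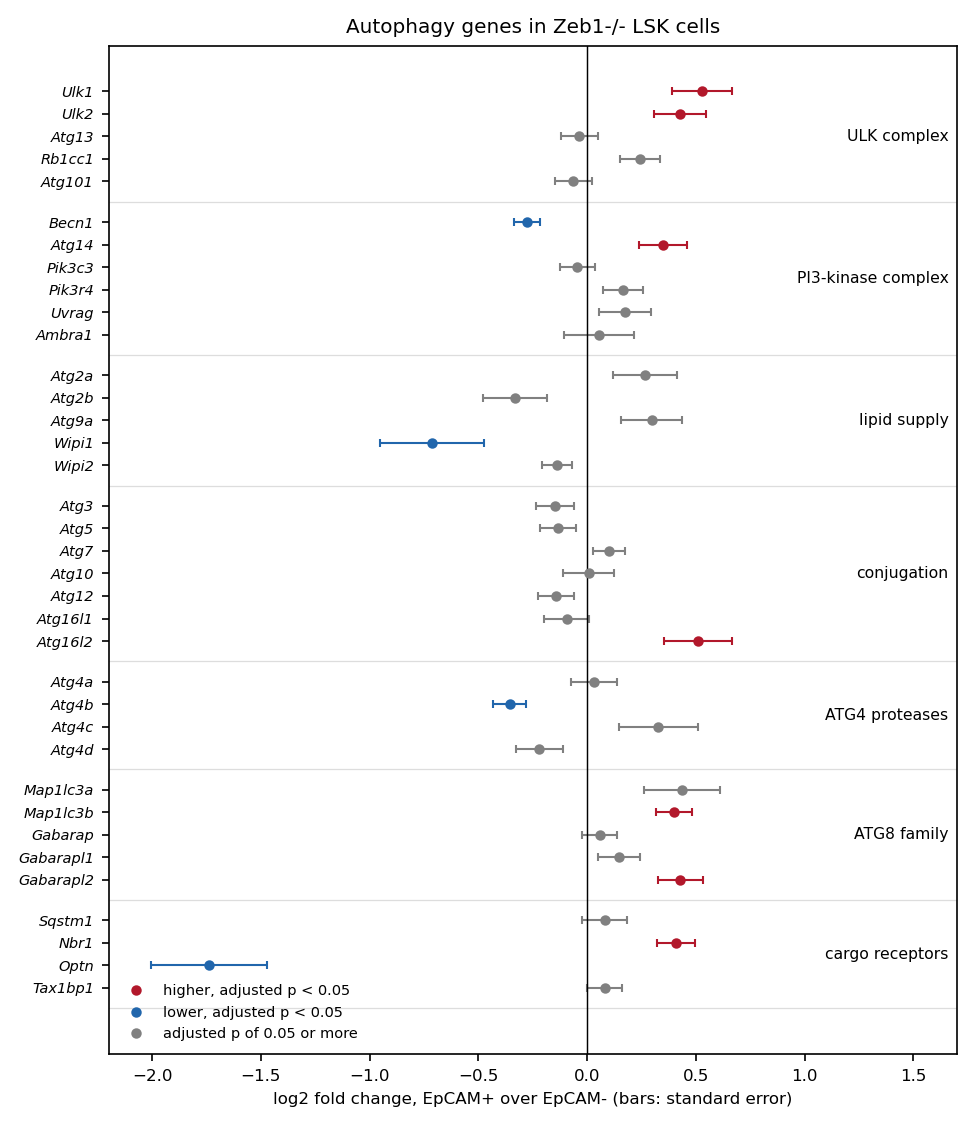
Log2 fold change of each of the 36 autophagy genes, EpCAM+ over EpCAM-, grouped by role in autophagosome formation. Points are edgeR estimates from 4 libraries per fraction and bars are standard errors. Red marks genes that were higher and blue genes that were lower at an adjusted p under 0.05, and grey marks the others. The zero line means equal levels in both fractions.

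The ULK complex receives nutrient signals and starts the process, and both of its alternative kinases were higher with EpCAM. *Ulk1* (ENSMUSG00000029512, chromosome 5, 110784488 to 110810097), the main starting kinase, had 25.6, 22.6, 27.7 and 21.3 CPM in the EpCAM+ libraries and 18.4, 14.3, 20.2 and 14.5 CPM in the EpCAM- libraries. The lowest EpCAM+ value lay above the highest EpCAM- value. Means were 24.3 ± 2.89 and 16.8 ± 2.92 CPM (mean ± SD, n = 4 in each fraction here and below), a log2FC of 0.53 (SE 0.14, edgeR adjusted p = 0.0124). *Ulk2* (ENSMUSG00000004798, chromosome 11, 61775649 to 61855073), its close relative, had 25.6, 23.7, 24.6 and 24.6 CPM against 20.7, 14.9, 20.9 and 16.7 CPM. Here too the fractions did not overlap, and the EpCAM+ values lay closer together (24.6 ± 0.761 and 18.3 ± 2.95 CPM). Its log2FC was 0.43 (SE 0.12, edgeR adjusted p = 0.0163).

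The 3 scaffold and adaptor genes of the same complex did not pass the test. *Rb1cc1*, which encodes the scaffold FIP200, ranged from 50.7 to 55.3 CPM with EpCAM and from 37.4 to 48.1 CPM without, and no values overlapped. Its log2FC of 0.24 missed the threshold in edgeR (adjusted p = 0.0538), and met it with the replicate number as a block (0.0469) and without EpCAM- replicate 1 (0.0478). *Atg13*, the adaptor that links the kinase to the scaffold, lay at 38.0 to 41.3 and 35.1 to 43.9 CPM (log2FC -0.04, edgeR adjusted p = 0.759). *Atg101*, which stabilizes ATG13, overlapped as well, at 126 to 142 and 120 to 152 CPM (log2FC -0.06, edgeR adjusted p = 0.564). A difference between the kinase genes and these partners was not tested.

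The class III PI3-kinase complex makes the lipid signal that marks the growing membrane, and its subunit genes *Becn1* and *Atg14* moved in opposite directions. *Becn1* (ENSMUSG00000035086, chromosome 11, 101285952 to 101302286), the regulatory subunit Beclin-1, had 107, 106, 98.1 and 102 CPM with EpCAM and 126, 123, 128 and 124 CPM without. Every EpCAM+ value lay below every EpCAM- value, and the spread was narrow (103 ± 4.10 and 125 ± 2.23 CPM). The log2FC was -0.28 (SE 0.06, edgeR adjusted p = 0.00442). Its exons share 43.9% of their bases with *Cntd1* on the opposite strand, whose reads came to 1.91 CPM on average, beside 114 CPM for *Becn1*. Strandedness of counting is not given, so how reads of the shared bases were assigned is not known. *Atg14* (ENSMUSG00000037526, chromosome 14, 47540893 to 47570649), which directs the complex to autophagosome formation, had 21.6, 18.3, 23.5 and 24.6 CPM against 17.9, 16.4, 16.5 and 18.3 CPM. EpCAM+ library 2 lay barely above the highest EpCAM- library, and the other 3 lay clearly above it. Means were 22.0 ± 2.77 and 17.3 ± 0.963 CPM, with a log2FC of 0.35 (SE 0.11, edgeR adjusted p = 0.0293).

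The log2FC of *Atg14* stayed between 0.29 and 0.43 with any 1 library left out, but its call did not hold throughout. Its edgeR adjusted p was 0.0575 without EpCAM+ replicate 1, 0.0849 without EpCAM+ replicate 3, 0.0841 without EpCAM+ replicate 4, 0.0650 without EpCAM- replicate 2 and 0.0795 without EpCAM- replicate 3. The other subunits did not pass. *Pik3c3*, the catalytic subunit VPS34, lay at 38.4 to 42.5 CPM with EpCAM and 38.3 to 45 CPM without (log2FC -0.04, edgeR adjusted p = 0.672). *Pik3r4*, its membrane anchor, lay at 18 to 20.9 and 16.6 to 18 CPM without overlap (log2FC 0.17, edgeR adjusted p = 0.169). *Uvrag*, which takes the place of ATG14 in an endosomal complex, spread widely with EpCAM, from 39.7 to 55.9 CPM against 37.4 to 47.3 CPM (log2FC 0.17, edgeR adjusted p = 0.263). *Ambra1*, which ties Beclin-1 to the ULK complex, lay at 12.3 to 18 and 12.9 to 17.3 CPM (log2FC 0.05, edgeR adjusted p = 0.806).

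Lipid supply to the membrane is the work of *Atg2a*, *Atg2b*, *Atg9a*, *Wipi1* and *Wipi2*, of which *Wipi1* alone passed the test. *Wipi1* (ENSMUSG00000041895, chromosome 11, 109573331 to 109611967), a reader of the lipid signal, had 6.80, 6.24, 4.64 and 5.19 CPM against 7.37, 6.88, 9.35 and 13.9 CPM. EpCAM- library 4 was high, and EpCAM- library 2 lay just above EpCAM+ library 1. Means were 5.72 ± 0.981 and 9.37 ± 3.20 CPM, with a log2FC of -0.71 (SE 0.24, edgeR adjusted p = 0.0348). Without EpCAM- replicate 4 the log2FC was -0.47 and the adjusted p in edgeR 0.0908. The call was also lost without EpCAM+ replicate 2 (edgeR adjusted p = 0.0510), 3 (0.0927) or 4 (0.0755) and without EpCAM- replicate 3 (0.0682). *Wipi2*, which recruits ATG16L1, lay at 63.8 to 72.7 and 71.0 to 78.9 CPM (log2FC -0.14, edgeR adjusted p = 0.135).

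*Atg2a* and *Atg2b*, whose products carry lipid into the membrane, did not pass the test. *Atg2a* was at 14.1 to 17.3 CPM with EpCAM and 9.55 to 14.8 CPM without (log2FC 0.26, edgeR adjusted p = 0.169). *Atg2b* was at 9.24 to 13.5 and 13.2 to 16.9 CPM (log2FC -0.33, edgeR adjusted p = 0.0922), and passed with the replicate number as a block (0.0361). *Atg9a*, the scramblase of the seed vesicles, was at 11.4 to 13.2 and 8.36 to 12.1 CPM (log2FC 0.30, edgeR adjusted p = 0.110). Without EpCAM- replicate 4 its adjusted p in edgeR was 0.0441. The log2 ratio of *Atg2a* to *Atg2b* was higher with EpCAM by 0.61 (SE 0.17), in 4 of 4 libraries when compared by replicate number (exact permutation p = 0.0286, the smallest that 4 libraries against 4 can give).

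Among the 7 genes of the conjugation machinery, *Atg16l2* passed the test and the others did not. *Atg16l2* (ENSMUSG00000047767, chromosome 7, 101263034 to 101302251), a relative of *Atg16l1* whose need for autophagy is less clear, had 24.1, 23.0, 18.7 and 22.8 CPM against 17.8, 18.6, 14.0 and 11.6 CPM. EpCAM+ library 3 came close to EpCAM- library 2 without overlap. Means were 22.1 ± 2.39 and 15.5 ± 3.29 CPM, a log2FC of 0.51 (SE 0.16, edgeR adjusted p = 0.0239). The edgeR adjusted p was above the threshold without EpCAM+ replicate 1 (0.0657), 2 (0.0516) or 4 (0.0544) and without EpCAM- replicate 3 (0.07) or 4 (0.0508). *Atg16l1*, which places the conjugation complex on the membrane, lay at 18.8 to 23.7 and 21.0 to 25.0 CPM (log2FC -0.09, edgeR adjusted p = 0.483). The log2 ratio of *Atg16l1* to *Atg16l2* differed by -0.62 (SE 0.17) between fractions, again in 4 of 4 libraries (exact permutation p = 0.0286).

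The remaining conjugation genes overlapped between the fractions. *Atg7*, the E1-like enzyme, lay at 38.1 to 42.2 CPM with EpCAM and 36.1 to 38.4 CPM without (log2FC 0.10, edgeR adjusted p = 0.281). *Atg3*, the E2-like enzyme for ATG8 proteins, lay at 129 to 163 and 155 to 170 CPM (log2FC -0.15, edgeR adjusted p = 0.191). *Atg10*, the E2-like enzyme for ATG12, lay at 26.4 to 31.2 and 24.4 to 34.5 CPM (log2FC 0.01, edgeR adjusted p = 0.964). *Atg5* and *Atg12*, whose products are joined to each other, did not pass either. *Atg5* lay at 62.4 to 75.5 and 72.5 to 81.7 CPM (log2FC -0.14, edgeR adjusted p = 0.206), and *Atg12* at 49.6 to 58.3 and 56.6 to 64.7 CPM (log2FC -0.14, edgeR adjusted p = 0.176).

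ATG4 proteases prepare ATG8 proteins for lipid attachment and release them again, and *Atg4b* was lower with EpCAM. *Atg4b* (ENSMUSG00000026280, chromosome 1, 93751500 to 93790610), the protease with the broadest activity, had 75.8, 70.9, 67.2 and 71.5 CPM against 86.8, 87.9, 87.9 and 102 CPM. No values overlapped, and EpCAM- library 4 lay apart from the other 3. Means were 71.3 ± 3.52 and 91.3 ± 7.47 CPM, with a log2FC of -0.36 (SE 0.08, edgeR adjusted p = 0.00436). *Atg4a*, which prefers GABARAP proteins, lay at 21.7 to 27.4 and 21.7 to 26.8 CPM (log2FC 0.03, edgeR adjusted p = 0.832). *Atg4c* had few reads, at 4.88 to 7.20 and 4.12 to 5.07 CPM (log2FC 0.33, edgeR adjusted p = 0.17). *Atg4d* lay at 20 to 25.7 and 25.1 to 29.7 CPM (log2FC -0.22, edgeR adjusted p = 0.125).

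**Figure D2:**
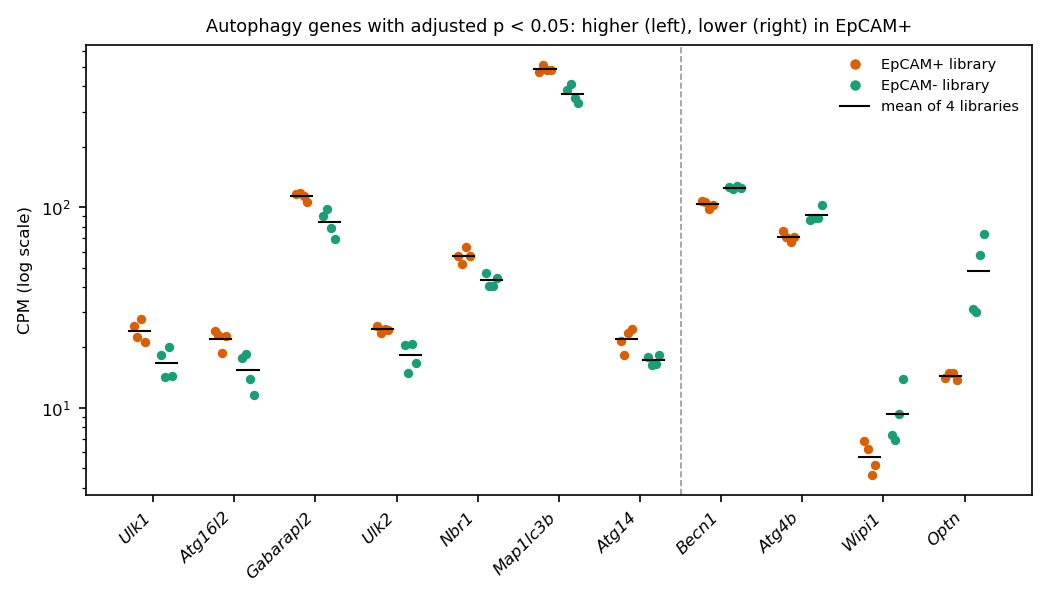
CPM of the 11 autophagy genes with an adjusted p under 0.05, in each of 4 EpCAM+ libraries (orange) and 4 EpCAM- libraries (green), on a log scale. Each point is a library and each bar the mean of 4. Genes left of the dashed line were higher with EpCAM and genes right of it lower. Heights are not corrected for gene length and do not compare levels between genes.

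In the ATG8 family, whose proteins coat the autophagosome, *Map1lc3b* and *Gabarapl2* were higher with EpCAM (2 of 5 genes, beside 21.8% of all tested genes), and the other 3 did not pass the test. *Map1lc3b* (ENSMUSG00000031812, chromosome 8, 121590361 to 121598760), which encodes LC3B, had 472, 512, 481 and 482 CPM with EpCAM and 383, 412, 351 and 329 CPM without. The fractions were well separated, with means of 487 ± 17.4 and 369 ± 36.4 CPM. Its log2FC was 0.40 (SE 0.08, edgeR adjusted p = 0.00365). *Gabarapl2* (ENSMUSG00000031950, chromosome 8, 111940703 to 111953612), which encodes GATE-16, had 116, 118, 113 and 106 CPM against 90.8, 97.8, 79.0 and 69.4 CPM. EpCAM- libraries 3 and 4 were lower than 1 and 2, and all 4 lay under the EpCAM+ values (113 ± 5.32 and 84.2 ± 12.6 CPM). Its log2FC was 0.43 (SE 0.10, edgeR adjusted p = 0.00763).

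*Map1lc3a*, which encodes LC3A, had a log2FC as large, 0.44 (SE 0.18), but wider spread, at 15.6 to 21.1 and 9.34 to 16.5 CPM. It missed the threshold in edgeR (adjusted p = 0.0670), and met it without EpCAM- replicate 1 (0.0473). *Gabarapl1* lay at 134 to 168 and 114 to 140 CPM (log2FC 0.15, edgeR adjusted p = 0.236), and *Gabarap* at 151 to 175 and 142 to 166 CPM (log2FC 0.06, edgeR adjusted p = 0.601). The log2 ratio of *Gabarap* to *Gabarapl2* differed by -0.38 (SE 0.09) between fractions, in 4 of 4 libraries (exact permutation p = 0.0286). Per kilobase of listed gene length, EpCAM- cells held most *Gabarap* (83.4 CPM per kb), then *Gabarapl1* (65.5), *Map1lc3b* (49.0), *Gabarapl2* (36.2) and *Map1lc3a* (11.8 CPM per kb). In the deposited FPKM of the EpCAM- libraries *Gabarap* again stood highest (171) and *Map1lc3a* lowest (14.8), but *Map1lc3b* (165) came before *Gabarapl1* (135) and *Gabarapl2* (78.4), and in the EpCAM+ libraries *Map1lc3b* (230.4) stood above *Gabarap* (188). Processed pseudogenes of *Map1lc3b* (4, identity 96.1 to 99.6%, at most 6.68 CPM) and of *Gabarapl2* (3, identity 96.6 to 99.4%, at most 0.457 CPM) took few reads of their own. So did *Atg4a-ps*, a copy of *Atg4a* (identity 99.3% over 2115 bases, 0.396 CPM). How reads that fit both a gene and its copy were counted is not given, so these levels do not bound the effect of copies.

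Compared as a group in each library, the median of the ATG8 genes relative to their EpCAM- means on the log2 scale was 0.36, 0.48, 0.35 and 0.34 in EpCAM+ libraries 1 to 4. The EpCAM- libraries gave 0.12, 0.09, -0.07 and -0.16 for the same *Map1lc3* and *Gabarap* genes. The ULK complex genes gave 0.19, 0.30, 0.32 and 0.19 against 0.13, -0.22, 0.08 and -0.12. In both groups the fractions did not overlap, and the medians of all 13560 tested genes, at 0.01 to 0.03 against 0.0016 to 0.0046, did not overlap either. Medians of the groups of *Becn1*, *Wipi1*, *Atg16l2*, *Atg4b* and *Optn* overlapped between fractions. So did the medians of all 36 autophagy genes, at 0.12, -0.02, 0.13 and 0.05 with EpCAM and 0.06, -0.05, 0.02 and -0.02 without.

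**Figure D3:**
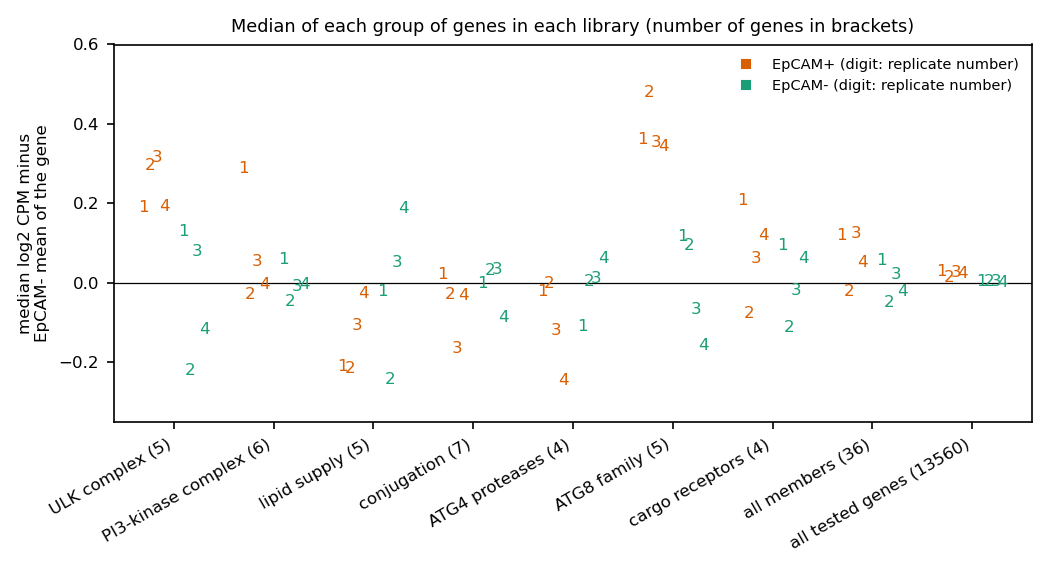
Median of each group of autophagy genes in each library, as log2 CPM minus the gene's mean in the EpCAM- libraries. Digits are replicate numbers, orange for EpCAM+ and green for EpCAM-, and the number of genes is in brackets. The groups at the right are all 36 autophagy genes and all 13560 tested genes.

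The cargo receptor genes held the largest log2FC among the 36, in *Optn*. *Optn* (ENSMUSG00000026672, chromosome 2, 5020642 to 5064051), which encodes the mitophagy receptor optineurin, had 14.1, 14.9, 14.9 and 13.7 CPM with EpCAM and 31.0, 30.2, 58.1 and 73.4 CPM without. The EpCAM+ values were nearly equal, while EpCAM- libraries 3 and 4 stood well above 1 and 2. Means were 14.4 ± 0.587 and 48.2 ± 21.2 CPM, so that *Optn* was 3.33-fold higher without EpCAM (log2FC -1.74, SE 0.27, edgeR adjusted p = 0.000881). *Nbr1* (ENSMUSG00000017119, chromosome 11, 101552149 to 101581951), a receptor for ubiquitinated aggregates, had 56.9, 52.0, 63.3 and 57.3 CPM against 47.1, 40.7, 40.5 and 44.5 CPM. No EpCAM+ value fell into the EpCAM- range, and means were 57.3 ± 4.61 and 43.2 ± 3.18 CPM. The log2FC was 0.41 (SE 0.09, edgeR adjusted p = 0.00405).

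*Sqstm1* and *Tax1bp1* did not pass the test. *Sqstm1*, which encodes the receptor p62, lay at 209 to 290 CPM with EpCAM and 207 to 241 CPM without (log2FC 0.08, edgeR adjusted p = 0.550). *Tax1bp1*, a receptor that also acts in NF-κB signaling, lay at 414 to 466 and 396 to 474 CPM (log2FC 0.08, edgeR adjusted p = 0.438). The log2 ratio of *Sqstm1* to *Nbr1* differed by -0.34 (SE 0.11) between fractions, in 3 of 4 libraries (exact permutation p = 0.0857). Of 10 ratios between related genes, the 3 given above for *Atg2a*, *Atg16l1* and *Gabarap* had the smallest exact permutation p, and after Benjamini-Hochberg adjustment over the 10 it was 0.0952 for each.

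Promoters were read for the target sequence of TFEB, a master regulator of lysosomal and autophagy genes, and for the E-box that ZEB1 binds. Of the 36 genes, 30 had a RefSeq promoter on GRCm38 that could be matched by name. The TFEB sequence TCACGTGA was in the promoter of *Atg3* alone, that is in 1 of the 34 promoters of these genes (2.94%) and in 320 of 32851 promoters genome-wide (0.974%). It is shown because the site lies 64 bases before the RefSeq start of *Atg3*, at chr16:45158746-45158775 on the plus strand (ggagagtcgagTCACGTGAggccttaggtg). The ZEB1 sequence CAGGTG, read on either strand, was in 7 of the 34 promoters (20.6%), those of *Atg14*, *Atg16l2*, *Atg2b*, *Map1lc3b*, *Optn*, *Pik3r4* and *Tax1bp1*, and in 6640 promoters genome-wide (20.2%). Those of *Map1lc3b* and *Pik3r4* lie at or after the RefSeq start, not before it. Bases around the sites of *Atg16l2*, *Atg2b* and *Tax1bp1* overlap annotated exons, of *Atg16l2* itself, *Gskip* and *Gm43966*. The sites of *Atg14* and *Optn* are given as examples from genes that differed between fractions, with the E-box in capitals as read on the other strand. *Atg14* carries it at chr14:47568440-47568469 on the minus strand (gagcccaggatgCACCTGgataaaaacaaa), 17 bases before a RefSeq start that lies inside the gene as listed above, in a window that overlaps an annotated *Atg14* exon. *Optn* carries it at chr2:5064268-5064367 on the minus strand (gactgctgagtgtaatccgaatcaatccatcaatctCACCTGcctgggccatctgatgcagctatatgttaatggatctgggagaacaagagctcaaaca), 208 bases before the RefSeq start. Binding of either factor was not measured.

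Further lists cover regulators of autophagy and later steps outside the 36 genes, and their counts can be read beside the 21.8% higher and 20.8% lower of all tested genes. Among transcription factors of autophagy genes, 2 of 7 tested (28.6%) were higher, *Tfeb* itself (18.6, 19.3, 20.6 and 19.3 CPM against 14.5, 12.7, 14.1 and 11.3 CPM, log2FC 0.56, edgeR adjusted p = 0.00275) and *Foxo1* (log2FC 0.66, edgeR adjusted p = 0.00784). *Foxo3* had a log2FC of 0.38 (edgeR adjusted p = 0.0513, and 0.0167 with the replicate number as a block). Of 32 tested genes of mTORC1 and AMPK, which turn autophagy off and on with nutrients, 5 (15.6%) were higher and 6 (18.8%) lower. Genes of AMPK subunits went both ways. *Prkag2*, a regulatory subunit of AMPK, was at 59.6, 65.3, 60.7 and 56.2 CPM against 32.5, 33.7, 22.9 and 18.9 CPM (log2FC 1.16, edgeR adjusted p = 0.000645). *Prkaa2*, a catalytic subunit, was higher as well (log2FC 1.62, edgeR adjusted p = 0.00411), on 14 to 36 reads with EpCAM and 6 to 10 without, while the other catalytic subunit *Prkaa1* (log2FC -0.33, edgeR adjusted p = 0.0416) and the regulatory subunits *Prkab1* (log2FC -0.58, edgeR adjusted p = 0.00437) and *Prkag1* (log2FC -0.49, edgeR adjusted p = 0.00963) were lower. *Castor1*, an arginine sensor (log2FC 1.18, edgeR adjusted p = 0.00131), and the sestrin gene *Sesn3* (log2FC 1.17, edgeR adjusted p = 0.00323), whose products hold mTORC1 back, were higher, while *Akt1s1*, which encodes the mTORC1 inhibitor PRAS40, was lower (log2FC -0.25, edgeR adjusted p = 0.0300). In the same list *Rragb* was also higher (log2FC 0.41, edgeR adjusted p = 0.0175). *Lamtor4* (log2FC -0.46, edgeR adjusted p = 0.00691) and *Rheb* (log2FC -0.21, edgeR adjusted p = 0.0344) were also lower.

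Fusion of the autophagosome with the lysosome was represented by 16 tested genes, 5 higher (31.2%) and 2 lower (12.5%). *Vamp8*, a lysosomal SNARE, had 843, 1003, 923 and 851 CPM against 633, 665, 575 and 613 CPM (log2FC 0.54, edgeR adjusted p = 0.000947). *Rubcnl* (Pacer) was higher (log2FC 1.5, edgeR adjusted p = 0.00423), and so was *Rubcn* (Rubicon, log2FC 0.43, edgeR adjusted p = 0.0234). Whether the higher genes change fusion was not tested. *Vps33a*, of the HOPS tether, was lower (log2FC -0.52, edgeR adjusted p = 0.00182). Called fusion genes came to 4 without EpCAM+ replicate 3 or without EpCAM- replicate 2. Of 19 other receptors, 8 (42.1%) were higher and 5 (26.3%) lower, among them *Calcoco1* (log2FC 0.79, edgeR adjusted p = 0.00103), *Phb2* (log2FC -1.01, edgeR adjusted p = 0.000405) and *Nufip1* (log2FC -0.55, edgeR adjusted p = 0.000408), receptors for the endoplasmic reticulum, mitochondria and ribosomes. That total of 13 was 8 without EpCAM+ replicate 1 or without EpCAM- replicate 3. Of 13 further genes of autophagosome formation, 3 (23.1%) were lower, *Tmem41b* (log2FC -0.43, edgeR adjusted p = 0.000966), *Nrbf2* (log2FC -0.54, edgeR adjusted p = 0.00110) and *Snx18* (log2FC -0.39, edgeR adjusted p = 0.0230).

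Marker genes of blood lineages differed between the fractions too, and their part in the result was not tested. The most abundant marker is that with the highest CPM, not corrected for gene length. Neutrophil markers (5 of 10 tested lower, *Mpo* the most abundant) summed to 1098, 1269, 1154 and 1853 CPM with EpCAM and 18565, 13662, 15369 and 11943 CPM without. Erythroid markers (6 of 8 lower, *Car2* the most abundant with EpCAM and *Car1* without) summed to 2317, 2778, 3859 and 2685 CPM and to 4337, 4420, 8673 and 11106 CPM, highest in EpCAM- libraries 3 and 4, as *Optn* was. Among EpCAM- libraries, the mast cell and basophil sums, the megakaryocyte sums and *Wipi1* were also highest in 3 and 4. A link between these patterns was not tested. *Car1* stood at 16 to 158 CPM with EpCAM and 1599 to 5956 CPM without, while *Car2* did not pass the test (log2FC -0.15, edgeR adjusted p = 0.633). Mast cell and basophil markers (4 of 7 lower, *Gata2* the most abundant with EpCAM and *Cpa3* without) summed to 268 to 296 and 453 to 752 CPM, with *Cpa3* at 49.9 to 63.6 and 183 to 407 CPM. *Gata2* did not pass the test (log2FC 0.28, edgeR adjusted p = 0.0960), and was higher with the replicate number as a block (0.0434). Stem cell and LSK markers (9 of 11 higher, *Cd34* the most abundant) summed to 3052, 2881, 3122 and 2869 CPM and to 2303, 2283, 1811 and 1499 CPM. *Cd34* itself did not pass (log2FC 0.28, edgeR adjusted p = 0.104), and was higher with the block (0.0485).

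Conventional dendritic cell markers (6 of 7 higher, *Cd74* the most abundant with EpCAM and *H2-Ab1* without) summed to 12263, 919, 3160 and 12732 CPM with EpCAM and 327, 114, 147 and 176 CPM without. Plasma cell markers (2 of 4 higher, *Jchain* the most abundant with EpCAM and *Xbp1* without) summed to 3958, 449, 668 and 384 CPM and to 254, 256, 243 and 169 CPM. Of these, *Jchain* took 199 to 3525 CPM with EpCAM and 0 to 0.273 CPM without, and *Xbp1*, which did not pass the test (log2FC 0.08, edgeR adjusted p = 0.767), took 172 to 347 and 167 to 249 CPM. Plasmacytoid dendritic markers (2 of 5 higher, *Irf8* the most abundant) lay at 263 to 761 and 286 to 407 CPM, monocyte and macrophage markers (1 of 6 higher, 2 lower, *Lyz2* the most abundant) at 640 to 954 and 508 to 1273 CPM, and megakaryocyte markers (1 of 6 higher, *Pf4* the most abundant, *Gp6* at 0 in all 8) at 134 to 375 and 87.4 to 298 CPM. Neither *Irf8* (log2FC 0.78, edgeR adjusted p = 0.282) nor *Pf4* (log2FC 0.15, edgeR adjusted p = 0.880) passed the test. B cell markers (2 of 3 higher, *Cd79b* the most abundant, *Pax5* at 0 in all 8) lay at 71.5 to 120 and 46.1 to 78.7 CPM, T cell markers (1 of 1 tested higher, *Cd4* the most abundant) at 2.29 to 4.19 and 0.809 to 1.93 CPM, and epithelial markers (3 of 3 higher, *Krt18* the most abundant, *Krt5*, *Krt14* and *Krt19* at 0 in all 8) at 195 to 241 and 73.2 to 102 CPM. *Cd79b* did not pass the test (log2FC 0.30, edgeR adjusted p = 0.120), and was higher with the block (0.0370).

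These values come from 4 libraries per fraction and describe RNA of sorted cell mixtures, so that shifts in cell types and shifts within cells cannot be told apart for *Optn*, *Becn1* or any other gene here. Neither autophagic flow nor LC3B or p62 protein was measured. Without libraries of control mice, whether *Zeb1* itself acts on *Ulk1* or *Map1lc3b* was not tested. Cells sorted by EpCAM also differ in *Epcam* by construction. Calls for *Atg14*, *Wipi1* and *Atg16l2* were each lost when any 1 of 5 particular libraries was left out, and those for *Ulk1*, *Ulk2*, *Becn1*, *Atg4b*, *Map1lc3b*, *Gabarapl2*, *Nbr1* and *Optn* were kept with any 1 library left out.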

How the data were processed

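The data are 8 RNA-Seq libraries, 4 of *Zeb1-/- EpCAM+* and 4 of *Zeb1-/- EpCAM-* LSK cells. The authors trimmed reads, aligned them to GRCm38 with STAR 2.6.1d and counted them per gene with featureCounts 1.5.0-p3. The deposited table holds raw counts, from which all tests here were made, FPKM as computed by the authors, used only to compare levels between genes, and a gene length (other) as listed by the authors. For some genes the FPKM imply another length than that column. The 15 columns of the authors' own comparisons (DESeq2 1.20.0) were not used. Annotation release and strandedness of counting are not given in the sources used here.

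Genes were kept with edgeR 4.0.16 (filterByExpr), scaled by TMM and tested two-sided by quasi-likelihood, with p adjusted by Benjamini-Hochberg over 13560 genes and a threshold of 0.05 (R 4.3.3, limma 3.58.1). Standard errors were derived from the F statistic. CPM used TMM library sizes and log2 CPM a prior count of 2. Ratios between related genes were compared by exact permutation over 70 splits, two-sided, with adjustment over 10 ratios. Sums, ranges and SD are over libraries, so that they hold counting error and differences between samples. Library totals (exact permutation p = 0.114) and mitochondrial reads (0.409 to 0.556% of counts, p = 0.543) overlapped between fractions, while detected genes numbered 19992 to 20310 with EpCAM and 18286 to 18746 without (p = 0.0286). No library duplicated another of its fraction (12 pairs checked, chi-square of 10.6 to 101 for each degree of freedom).

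Replicate numbers pair the samples: residuals of libraries with the same number correlated across genes at 0.205 to 0.356 (4 pairs), and with different numbers at -0.216 to 0.0396 (12 pairs). Genes are not independent replicates, and the sources do not say what the numbers share. The tests leave the pairing out, and a fit with the number as a block is an alternative. The genes, related lists and marker lists were written by hand with earlier results of these data known, and the design and alternatives before the data were examined here. Related genes are named by smallest adjusted p, at most 3 of a list, with *Foxo3* for its change with the block and with *Akt1s1*, *Rragb*, *Lamtor4*, *Rheb*, *Rubcn* and the AMPK subunits that differed added after their values were seen. *Becn2* is not in the table, and *Foxo4*, *Rragd* and *Ccpg1* had too few reads to be tested. Promoters (250 bases before to 50 bases after the start) came from a RefSeq table with no entry under the names *Becn1*, *Pik3c3*, *Atg12*, *Atg16l1*, *Rb1cc1* and *Map1lc3a*. Some promoter sites are not reported here. Exon overlaps came from GENCODE M21 and pseudogene copies from BLAST 2.17.0 at 95% identity or more. Python 3.11.15 with matplotlib 3.10.9 drew the figures. Alternatives were DESeq2 1.42.0, its size factors, upper-quartile scaling, library totals alone, filters of 1 count in any library or 10 in every library, the block, each library left out, an adjusted p under 0.01, and for ratios prior counts of 0.5 and 5 and a sign-flip test. The procedure was tested on simulated data.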

Additional observations from a re-analysis of the deposited data

Results flagged for a closer look

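In 3 of 72 groups of 4 values (36 genes in 2 fractions), a library lay far from the other 3 by Dixon's ratio, and chance alone gives about 1 in 20 such groups. *Rb1cc1* in EpCAM- replicate 2 stood at 37.4 CPM, with the nearest library at 46.3 CPM. *Atg4b* in EpCAM- replicate 4 stood at 102 CPM, with the nearest at 87.9 CPM. *Tax1bp1* in EpCAM- replicate 1 stood at 474 CPM, with the nearest at 408 CPM.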

How the results depend on the processing

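Of the 11 autophagy genes that differed, 8 (*Ulk1*, *Ulk2*, *Becn1*, *Atg4b*, *Map1lc3b*, *Gabarapl2*, *Nbr1* and *Optn*) kept direction and an adjusted p under 0.05 in DESeq2, with each scaling, each filter, the replicate number as a block and each library left out. Of all comparisons of a gene's log2FC with an alternative, 541 kept their call, 12 gained it and 23 lost it. A change of sign in a gene called in either fit occurred in 0. Among genes not called, the log2FC of *Atg13*, *Ambra1*, *Atg10*, *Atg4a* and *Sqstm1* changed sign with a library left out, and such changes count as kept. The genes higher with EpCAM numbered 7, and 11 with upper-quartile scaling, 3 at an adjusted p under 0.01 (*Map1lc3b*, *Gabarapl2* and *Nbr1*) and 5 to 9 with a library left out, and the 4 lower genes 3 to 4 with a library left out. With upper-quartile scaling the edgeR adjusted p was 0.0154 for *Rb1cc1*, 0.0494 for *Pik3r4*, 0.0470 for *Atg9a*, 0.0368 for *Map1lc3a* and 0.0539 for *Wipi1*, and with library totals alone 0.0276 for *Rb1cc1*, 0.0430 for *Map1lc3a* and 0.0534 for *Wipi1*. A filter of 1 count in any library gave *Atg14* 0.0727, and a filter of 10 counts in every library gave *Rb1cc1* 0.0373. The block gave 3465 higher and 3353 lower of all tested genes, against 2961 and 2818 without it, and 8 higher and 5 lower of the 36, adding *Rb1cc1* and *Atg2b* and changing no other call among the 36. The median log2FC of the 36 genes was 0.07, and 0.15 with upper-quartile scaling and with library totals, where that of all tested genes was 0.11. At an adjusted p under 0.01, 1696 of all tested genes were higher and 1727 lower, and with a library left out 2391 to 3089 and 2271 to 2950. DESeq2 gave 3280 higher and 3175 lower of all genes it tested, and the filter of 1 count 2990 and 2750. Genes of mTORC1 and AMPK that differed numbered 11, and 7 at 0.01, 15 in DESeq2 and 16 with the block. Fusion genes numbered 7, and 9 with the block, 4 with the filter of 1 count, 4 at 0.01 and 4 to 6 with a library left out. Other receptors numbered 13, and 16 with the block, 7 at 0.01 and 8 to 14 with a library left out. With the block, 10 stem cell and LSK markers were higher, and 3 each of the B cell, plasma cell and plasmacytoid dendritic markers. Monocyte and macrophage markers came to 1 higher and 3 lower, mast cell and basophil markers to 1 higher and 5 lower, and megakaryocyte markers to 2 higher. The counts of the other marker lists stayed as they were. Beyond fewer genes at a stricter threshold, the cause was not tested. None of the ratios between related genes passed the adjusted test, and for them the exact test with a library left out allows no p under 0.0571 and the sign-flip test of 4 pairs none under 0.125, so that these alternatives say nothing about their stability.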
